A study of Mus musculus with 16 samples.

Results

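Gene expression at 60 h was compared with that at 36 h in cultures of adult mouse neural stem cells that carried no Cre recombinase. The 8 arrays whose titles do not name CreER were taken, of 16 in the series: 4 from 60 h and 4 from 36 h. At each time 2 arrays came from cells given vehicle and 2 from cells given 4OH-TM, taken here to be 4-hydroxytamoxifen, the active metabolite of the tamoxifen that the design text names. Per the design text, time was counted from the start of treatment, so time in culture and time since treatment or vehicle cannot be told apart. The series asked about genes under the control of Tlx (Nr2e1), an orphan nuclear receptor of neural stem cells. The genotype Tlx(f/Z) was shared by all 16 cultures, and the labels do not say what f and Z stand for. The other 8 cultures also carried CreER, a Cre recombinase that 4-hydroxytamoxifen activates, and its 4 vehicle arrays served here as a second time course. Strain, age, sex, passage and culture density were not given in the sources used here. The 2 arrays in each group are described as biological replicates without naming animals or cultures, so p-values measure only the spread between these samples.

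Neural stem cells kept in growth factors divide continually, and their messenger RNA follows the state of the medium: growth factor signals act through receptor tyrosine kinases and ERK, which switch on their own feedback inhibitors. The mitotic genes are transcribed together late in the cell cycle. When amino acids run short, the integrated stress response raises genes for amino acid uptake and synthesis, and when sterols run short, the sterol pathway rises as a block.

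Among the largest rises between 36 h and 60 h were those of Kcnd3, a voltage-gated potassium channel, Spry4, a feedback inhibitor of receptor tyrosine kinase signalling, Smad5, a transducer of BMP signals, and the fatty acid desaturase Fads2. By small amounts in the average of both treatments, 12 of 23 genes of the integrated stress response and amino acid supply rose and 2 fell. Of 19 sterol synthesis genes 10 rose, and of 29 mitotic genes 16 fell. Of 13 heat-shock genes 8 fell and 1 rose, and of 23 splicing factors 11 fell and 4 rose. Under vehicle alone limma called 1 member of these 5 lists (5, 3, 7, 3 and 6 had an unadjusted p under 0.05 in that order). Of all 7618 genes tested, 1254 had such a p under vehicle, which is to be set beside every such vehicle count below. Of 7618 genes tested, 935 were higher at 60 h (12.3%) and 1134 were lower (14.9%) at a limma adjusted p under 0.05 (Benjamini-Hochberg). The changes were mostly small: 27 of the genes called higher and 0 of those called lower changed 2-fold or more. Of all calls 45.2% were higher, with signals as deposited 61.5%, and with arrays scaled to a common median 14.3%. As deposited 192 genes were higher and 120 lower of 7619 tested, and with a common median 500 and 3006 of 7621. The median change of all genes was -0.04, and -0.11 and -0.14 under those scalings, so small changes are given beside that median. In 672 genes (8.82%) all 4 arrays at 60 h lay above all 4 at 36 h, and in 1042 (13.7%) all 4 lay below, whether or not the gene was called. Leaving out 1 array at a time left 638 to 882 higher and 546 to 989 lower; the fewest lower were left without 4OH-TM 36 h replicate 1 (546), vehicle 60 h replicate 1 (596), 4OH-TM 60 h replicate 2 (643) and vehicle 36 h replicate 1 (645).

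A second measurement moved with time in the same 8 arrays. On these arrays, control probe sets lie at the 5' and 3' ends of a few transcripts, and since labelling starts at the 3' end, the ratio of 5' to 3' signal is a measure of how complete the RNA and its labelled copy were. The actin ratio at 36 h was 0.593 and 0.667 with vehicle and 0.548 and 0.647 with 4OH-TM (replicates 1 and 2). At 60 h it was 0.788 and 0.773 with vehicle and 0.85 and 0.891 with 4OH-TM. All 4 arrays at 60 h lay above all 4 at 36 h. Its mean went from 0.614 ± 0.0534 to 0.826 ± 0.0548 (SD over 4 arrays per time; exact permutation p = 0.0286 two-sided, the smallest that 4 arrays against 4 allow; 0.0429 after Benjamini-Hochberg over 6 measures). The Gapdh ratio moved the same way, from 0.975 ± 0.125 to 1.23 ± 0.0264, as did those of the transferrin receptor (0.241 to 0.324) and pyruvate carboxylase (0.244 to 0.475), each with an exact permutation p of 0.0286. The deposited 5' signals of pyruvate carboxylase at 36 h were dim: 27.1 and 38.2 with vehicle and 36.0 and 44.6 with 4OH-TM. In CreER arrays at 36 h they were 23.4 to 46.8, so this ratio rests on low values in both genotypes. The phage cre spike, a labelled control added at hybridisation that has nothing to do with CreER, had a mean ratio of 0.831 at 36 h and 0.830 at 60 h (exact permutation p = 0.83), and the mean of the arrays' median signals was 118 and 121 (exact permutation p = 0.857).

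**Figure D1:**
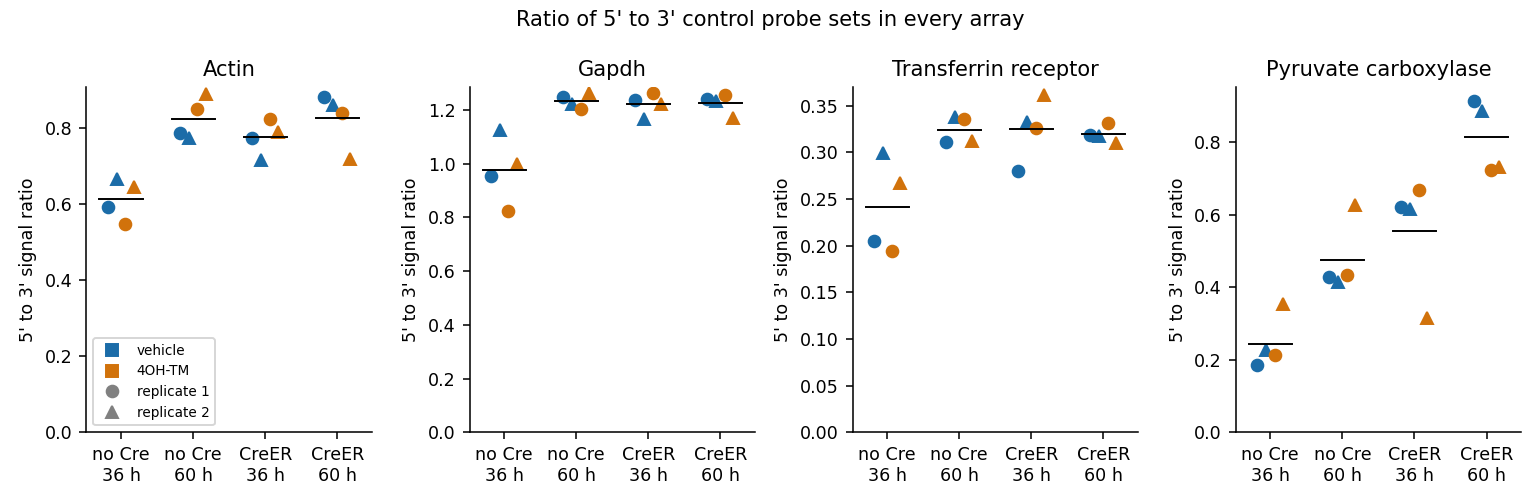
Ratio of 5' to 3' signal of 4 control transcripts (vertical axes, no unit) in each of the 16 arrays, by genotype and time, with vehicle in blue, 4OH-TM in orange, replicate 1 as a circle, replicate 2 as a triangle and the mean of 4 arrays as a line. Without Cre all 4 arrays at 60 h lie above all 4 at 36 h for every transcript shown; in CreER cultures the actin, Gapdh and transferrin receptor ratios overlap between times.

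In CreER cultures the actin ratio was 0.776 at 36 h and 0.826 at 60 h (exact permutation p = 0.286, n = 4 each) and the Gapdh ratio was 1.22 at both times (exact permutation p = 0.886), while that of pyruvate carboxylase went from 0.555 to 0.813 (exact permutation p = 0.0286). The lowest actin and Gapdh ratios thus belonged to the 36 h arrays without Cre. The CreER vehicle arrays that serve as the second time course also had higher actin ratios at 60 h (0.882 and 0.862) than at 36 h (0.773 and 0.716), so they are not free of this shift. The rise of the actin ratio was 0.273 with 4OH-TM and 0.151 with vehicle. Within both treatments at 36 h, replicate 2 had the higher ratio. These facts allow 4 measurements that are given beside some of the genes below: the change once the actin ratio enters the fit (called the covariate), the direction from replicate 1 to replicate 2 at 36 h, the change in CreER vehicle cultures, and the change at another probe set of the same gene. Among called genes with other probe sets, the median change at those had the same sign for 261 of 383 called higher (68.1%) and 426 of 549 called lower (77.6%).

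The covariate left few calls. With the actin ratio in the limma fit, 5 of all genes passed (0.0656%; 3 higher, 2 lower), and 874 had an unadjusted p under 0.05. With the Gapdh ratio instead, 7 were higher and 7 lower. Time and treatment together explained 0.837 of the variance of the actin ratio over the 8 arrays, and the covariate multiplied the standard error of the time change by a median of 2.35. The slope of the covariate rested on differences between the 2 arrays of each of the 8 groups in the fit, CreER groups included. Changes given with the covariate are therefore not adjusted from the arrays without Cre alone. The 935 genes called higher had a median log2 change of 0.30, and of 0.16 with the covariate; 801 of them (85.7%) kept the sign. The 1134 called lower had medians of -0.23 and -0.16, and 997 (87.9%) kept the sign. Over all genes tested the sign was the same in 67.6%.

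Genes that were higher at 60 h more often moved with the ratio inside the 36 h groups. Replicate 2 lay above replicate 1 in both treatments at 36 h for 55.2% of the genes called higher, for 16% of those called lower and for 24.4% of all genes tested. It lay below replicate 1 in both for 13.8%, 46.1% and 37.5% in the same order. Among the 15 largest rises it lay above in both for 13, and among the 15 largest falls for 1 (both taken from called genes whose times did not overlap). In the CreER arrays, which bear on these calls only through the shared normalisation, filter and spread, the within-group slope on the actin ratio was positive for 65.3% of the genes called higher, 44.9% of those called lower and 49.9% of all genes. Leaving out both replicate 1 arrays at 36 h, those of lowest actin ratio, left 479 genes higher and 297 lower; all 15 of the largest rises and 10 of the 15 largest falls were still called. How much of any gene's change belongs to the ratio was not tested beyond these values.

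Kcnd3 signals at 36 h were 42.9 and 46.2 with vehicle and 28.0 and 30.02 with 4OH-TM, and at 60 h they were 190.0 and 169.8 with vehicle and 176 and 223 with 4OH-TM. All 4 arrays at 36 h lay under the signal of 51.4 that a gene's mean had to reach to be tested and all 4 at 60 h lay far above it. The change was 1.97 ± 0.11 on the log2(signal + 16) scale (SE, limma adjusted p = 1.87e-07), where the added 16 understates the change of dim genes. Replicates 1 and 2 at 36 h were nearly equal, and with the actin covariate the change was 1.56 (limma adjusted p = 0.033). Under vehicle alone the change was 1.69 without Cre and 0.60 with CreER, a difference of 1.09 (limma adjusted p = 0.0225).

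Spry4 had signals of 329, 453, 288 and 362 at 36 h (vehicle replicates 1 and 2, then 4OH-TM replicates 1 and 2) and of 1325, 1265, 1314 and 1542 at 60 h in the same order. The groups were far apart, and replicate 2 was the higher array in both treatments at 36 h. The log2 change was 1.89 ± 0.13 (limma adjusted p = 2.12e-06) and 0.88 with the actin covariate (limma adjusted p = 0.033). Another probe set of Spry4, taken on all probe sets, changed by 2.26. Among 17 measured genes of growth factor signalling and ERK feedback, 5 rose (29.4%) and 2 fell (11.8%), against 12.3% and 14.9% of all genes. Beside Spry4, the ERK-induced transcription factors Etv4 (0.56) and Etv5 (0.19), the receptor Fgfr1 (0.47) and Spry2 (0.12, but -0.05 with arrays scaled to a common median) rose, and the inhibitors Spred1 (-0.16) and Spred2 (-0.15) fell. Etv4 signals were 469, 539, 354 and 482 at 36 h and 691, 694, 669.6 and 659 at 60 h, with no overlap, and its change with the covariate was 0.25. Without vehicle 36 h replicate 1, vehicle 60 h replicate 2, 4OH-TM 36 h replicate 1 or 4OH-TM 60 h replicate 1, 3 members of this list rose.

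Nsd1, a histone H3 methyltransferase, shows the other extreme. Its signals at 36 h were 2.88 and 45.3 with vehicle and 4.72 and 31.4 with 4OH-TM, and at 60 h 127, 106, 117 and 84.7. Both replicate 1 arrays at 36 h were near 0, and both replicate 2 arrays lay between them and the 60 h arrays. The log2 change was 1.92 ± 0.32 (limma adjusted p = 7.32e-04), and 0.01 with the actin covariate. Smad5 read 143, 249, 106 and 146 at 36 h and 572, 540.0, 492 and 649 at 60 h, a log2 change of 1.76 ± 0.15 (limma adjusted p = 8.02e-06), 0.77 with the covariate and 0.92 at another probe set.

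The other largest rises lay between 1.16 and 1.48. They were those of Abcb8, a mitochondrial transporter, Fads2, the histone methyltransferase Kmt5c, Ier5l, the receptor tyrosine kinase Tyro3, the insulin receptor adaptor Irs2, the synaptic scaffold Dlg4, the deadenylase subunit Cnot3, Prrc2a, the JNK scaffold Mapk8ip1 and the Hippo kinase Stk4. With the covariate, 15 of the 15 rises kept their sign and their median went from 1.25 to 0.57. With it Tyro3 changed by 0.98, Irs2 by 0.90, Prrc2a by 0.17 and Cnot3 by 0.11. Like Kcnd3, Nsd1 and Stk4 had mean signals at 36 h under 51.4 (21.1 and 33.4). Irs2 signals were 237, 390.0, 249 and 283 at 36 h and 572, 599.6, 761 and 875 at 60 h. At other probe sets of the same genes the change was 0.28 for Abcb8 and Tyro3 and 0.58 for Fads2, each smaller than at the probe set used. The median of the 15 rises in CreER vehicle cultures, which share no array with this comparison, was 0.56. There 15 of 15 had the same sign, against 4732 of all 7618 genes tested and 713 of the 935 called higher.

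**Figure D2:**
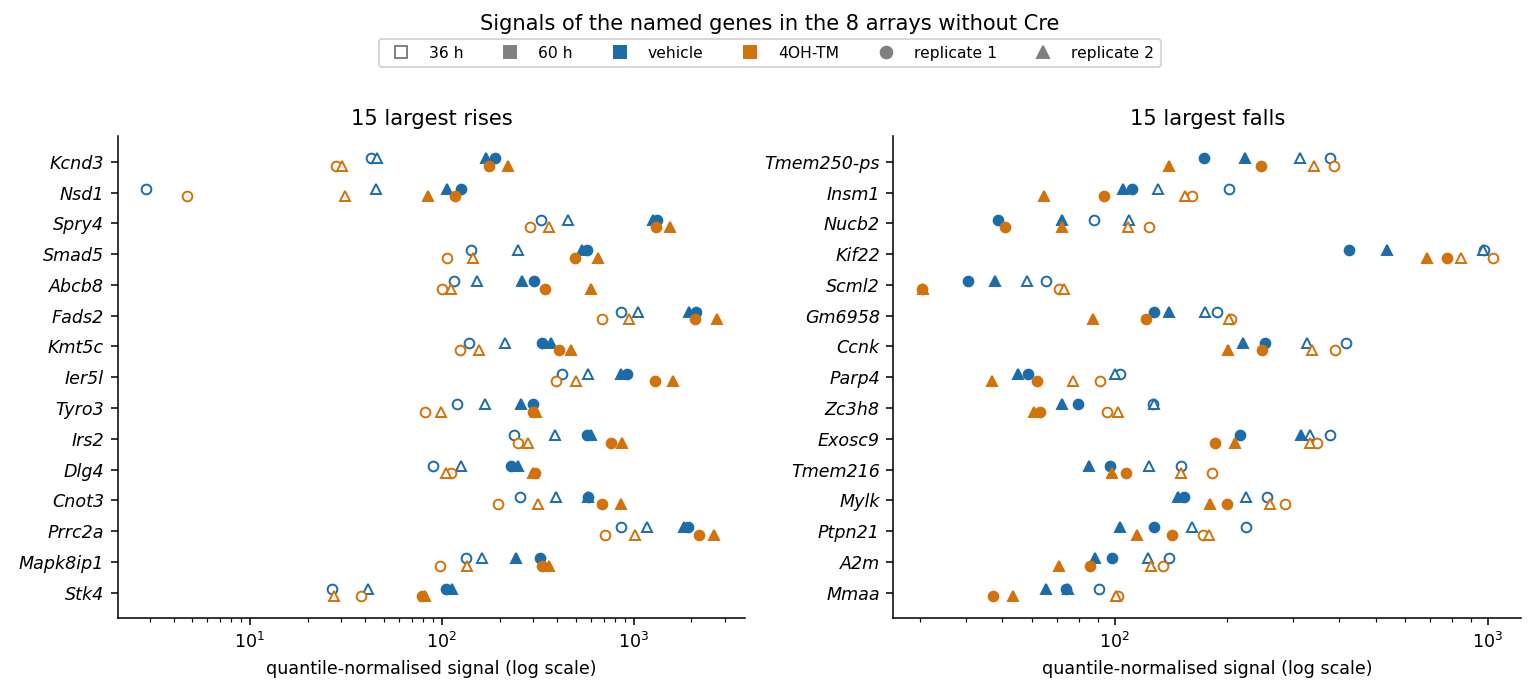
Quantile-normalised signals (log axis) of the genes with the largest rises (left) and the largest falls (right) in the 8 arrays without Cre, with 36 h as open and 60 h as filled symbols, vehicle in blue, 4OH-TM in orange, replicate 1 as circles and replicate 2 as triangles. The 4 arrays of each time do not overlap for any gene, since this was part of how they were chosen; at 36 h the triangles lie to the right of the circles in both treatments for 13 of the 15 rises.

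The largest falls were smaller, from -0.84 to -0.51. Tmem250-ps, listed as a pseudogene, read 376, 314, 388 and 342 at 36 h and 173, 223, 247 and 139.8 at 60 h, a change of -0.84 ± 0.15 (limma adjusted p = 0.00123). Insm1, a zinc-finger transcription factor of neural and neuroendocrine progenitors, read 202, 130.3, 161 and 154 at 36 h and 111, 105, 93.4 and 64.7 at 60 h, a change of -0.70 ± 0.14 (limma adjusted p = 0.00247). Kif22, a motor that moves chromosome arms in mitosis, read 976, 971, 1029.8 and 846 at 36 h and 424, 538, 776 and 688 at 60 h. Its fall was -0.67 at this probe set and -0.10 and -0.25 at the other ones. The other falls were those of Nucb2, the Polycomb protein Scml2, Gm6958, the cyclin Ccnk, Parp4, Zc3h8, the RNA exosome subunit Exosc9, the ciliary protein Tmem216, the myosin light chain kinase Mylk, Ptpn21, the protease inhibitor A2m and Mmaa, an enzyme of cobalamin metabolism. Scml2 read 65.6, 58.25, 70.8 and 73.25 at 36 h and 40.4, 47.8, 30.4 and 30.7 at 60 h. Every array at 60 h thus lay under 51.4, the mean signal a gene had to reach to be tested, and every array at 36 h above it. At another probe set Gm6958 changed by -0.03, Mylk by -0.24 and Tmem216 by -0.30. With the covariate 12 of 15 kept their sign and their median went from -0.61 to -0.30. The signs of Insm1 (0.04), Gm6958 (0.0031) and Ccnk (0.23) turned. In CreER vehicle cultures the median of the 15 falls was -0.13, and 11 of 15 had the same sign, against 4732 of all 7618 genes tested. The calls of 3 genes were lost when a single array was left out. Ptpn21 was lost without vehicle 36 h replicate 1, vehicle 60 h replicate 2 or 4OH-TM 60 h replicate 2 (limma adjusted p up to 0.0744), and Mmaa without vehicle 36 h replicate 1 (0.0527) and also with signals as deposited (limma adjusted p = 0.0922). A2m was lost without any of vehicle 36 h replicate 1, vehicle 60 h replicate 1, vehicle 60 h replicate 2, 4OH-TM 36 h replicate 1 and 4OH-TM 60 h replicate 2 (limma adjusted p up to 0.0851).

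**Figure D3:**
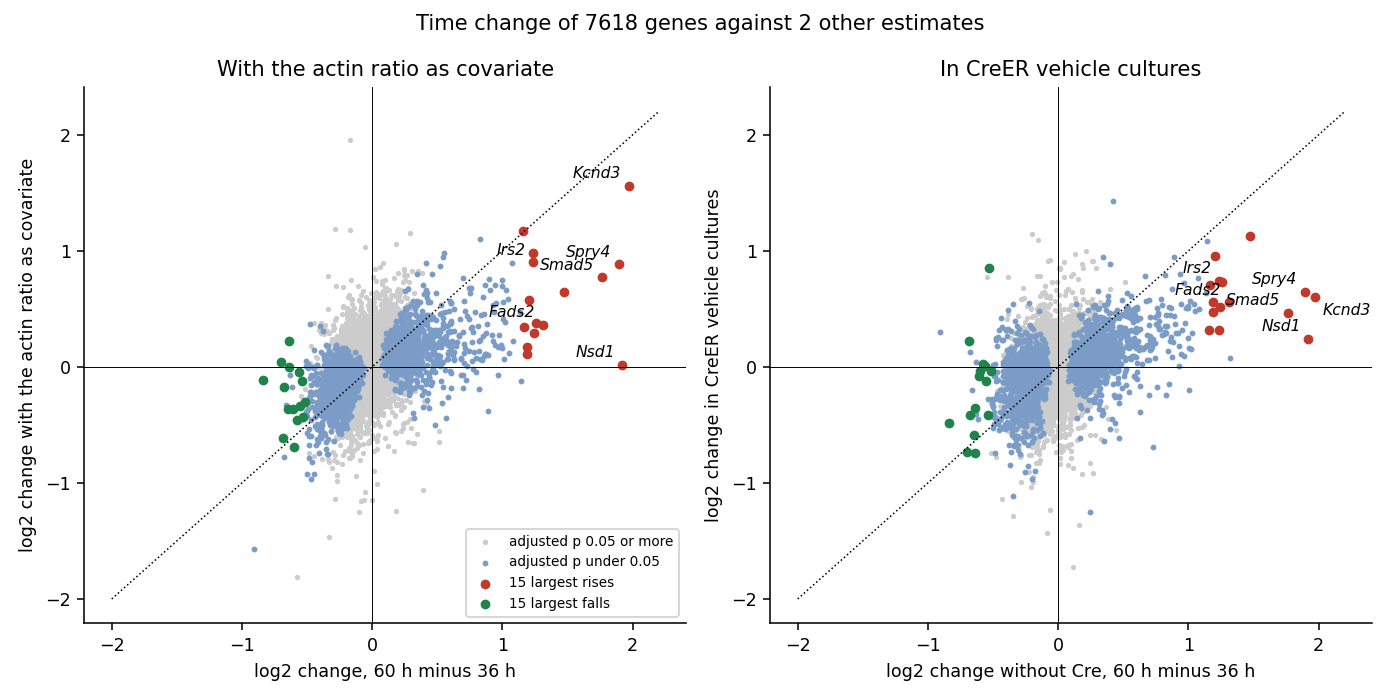
Log2 change from 36 h to 60 h without Cre (horizontal axes, log2(signal + 16) units) for all genes tested against the change with the actin ratio as covariate (left) and the change in CreER vehicle cultures (right); points are genes, blue where the limma adjusted p is under 0.05, red and green for the largest rises and falls, and the dotted line marks equal values. Kcnd3 keeps 1.56 of 1.97 with the covariate, while Nsd1 drops from 1.92 to 0.01.

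The 5 genes that passed with the actin covariate were Kcnd3, Spry4 and Rer1, a sorting protein of the early secretory pathway, which were higher, and Nasp, a histone chaperone, and the splicing kinase Clk1, which were lower. Rer1 changed by 0.52 without the covariate and 0.87 with it, Nasp by -0.35 and -0.75, and Clk1 by -0.47 and -0.96. Clk1 signals were 883, 1058, 982 and 1120.0 at 36 h and 738, 775, 674 and 699 at 60 h. In Clk1 and Nasp, replicate 2 was the higher array at 36 h in both treatments, and both genes fell by 60 h. In Rer1 replicate 2 was the lower array at 36 h (482 against 572 with vehicle, 402 against 498 with 4OH-TM) while all arrays at 60 h were higher, from 666 to 748.

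Of 29 measured members of the mitosis and G2/M list, 0 rose and 16 fell, against 14.9% of all genes called lower, and their median log2 change was -0.17, against -0.04 for all genes. With the actin covariate the list's median was -0.21, and 0 members passed by limma. Under vehicle alone 0 members passed by limma, 7 with an unadjusted p under 0.05. Under 4OH-TM alone 18 fell, against 14.8% of all genes. Top2a, the topoisomerase that untangles chromosomes, read 3259, 3150.4, 3084 and 3099.5 at 36 h and 2874, 2869, 2176 and 2147 at 60 h. Every array at 60 h was below every array at 36 h, and the 4OH-TM arrays at 60 h were the lowest. The change was -0.34 ± 0.03 (limma adjusted p = 8.43e-06) and -0.34 with the covariate. The spindle assembly factor Tpx2 (-0.38), the spindle checkpoint kinases Bub1b (-0.31) and Bub1 (-0.33) and the spindle protein Nusap1 (-0.25) fell as well. Replicate 2 lay above replicate 1 in both treatments at 36 h for 10 of the 29 and below it for 9. Over all genes tested these shares were 24.4% and 37.5%. The count of falls was between 10 and 12 whichever single array was left out, so 16 was not reached without all 8 arrays. It was 4 with signals as deposited and 26 with arrays scaled to a common median, where 120 of 7619 and 3006 of 7621 genes tested were lower.

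In CreER vehicle cultures the same list fell further: 26 of 29 members were lower at 60 h there, against 6.5% of all genes, with a median of -0.59. In vehicle cultures without Cre the median was -0.08. For 15 of the 29 the difference between these time changes passed the test (no Cre less negative in each), against 2.36% of all genes called in that comparison. Top2a changed by -0.16 without Cre and by -0.68 with CreER under vehicle, a difference of 0.52 (limma adjusted p = 4.02e-04).

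Promoter sequences of mitotic genes are shown because these genes moved together and share known late cell cycle elements: the CCAAT box and the element TTTGAA, known as the cell cycle homology region. Windows of 250 bases before the gene start came from RefSeq (GRCm38.p6), where 25 of the 29 measured members were listed. Capitals mark CCAAT or TTTGAA on either strand (ATTGG or TTCAAA where the element lies on the other one); where they adjoin, CCAAT and TTTGAA can share 1 base. The Top2a window is chr11:99024190-99024439, minus strand, and that of the cyclin-dependent kinase Cdk1 is chr10:69352913-69353162, minus strand, both 5' to 3' in the gene's own direction.
Top2a promoter: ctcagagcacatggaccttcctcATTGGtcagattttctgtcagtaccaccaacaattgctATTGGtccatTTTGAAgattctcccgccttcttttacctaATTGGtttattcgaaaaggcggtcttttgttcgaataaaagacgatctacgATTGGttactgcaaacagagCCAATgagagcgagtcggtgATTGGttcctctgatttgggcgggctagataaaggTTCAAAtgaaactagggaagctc
Cdk1 promoter: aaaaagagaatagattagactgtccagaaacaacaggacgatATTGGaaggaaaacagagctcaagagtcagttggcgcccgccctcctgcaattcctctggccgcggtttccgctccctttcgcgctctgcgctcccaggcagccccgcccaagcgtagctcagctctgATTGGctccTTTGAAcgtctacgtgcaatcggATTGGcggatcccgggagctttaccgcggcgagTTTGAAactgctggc
CCAAT was found in 19 of the 25 windows (76%) and in 33.8% of 32851 promoter windows of the same length, TTTGAA in 9 (36%) and in 16% of all, and both in 9 and in 5.55% of all. Of 13 members called lower with a window, 9 held CCAAT and 6 held both, among them Top2a, Cdk1 and Mki67, the antigen used to mark dividing cells. A match is a description of letters only.

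Of 29 measured DNA replication genes 1 rose and 10 fell, against 14.9% of all genes called lower, and the median was -0.08. Under vehicle 0 passed by limma (5 had an unadjusted p under 0.05). Under 4OH-TM 1 rose and 15 fell, against 13.8% and 14.8% of all genes. The interaction passed for 4 with the larger fall under 4OH-TM. In CreER vehicle cultures 13 fell, against 6.5% of all genes. The difference passed for 6 as less negative without Cre, against 2.36% of all genes called in either direction. Rfc4, a subunit of the clamp loader, fell by 0.34 and Gins1, of the replicative helicase, by 0.35 on the log2 scale, while Pold1, the catalytic subunit of DNA polymerase delta, rose by 0.34. Pold1 signals were 590.4, 608, 507 and 594 at 36 h and 783, 684, 714 and 735 at 60 h, without overlap. The count of falls was 4 without vehicle 36 h replicate 1, vehicle 60 h replicate 1 or 4OH-TM 36 h replicate 1, 5 without vehicle 60 h replicate 2, and 6 without either 4OH-TM 60 h replicate. It was 1 with signals as deposited and 22 with arrays scaled to a common median, where 120 of 7619 and 3006 of 7621 genes tested were lower.

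Of 23 measured genes of the integrated stress response and amino acid supply 12 rose and 2 fell in the average over both treatments, against 12.3% of all genes called higher, with a median of 0.23 and of 0.19 with the actin covariate. Within vehicle cultures 0 members were higher and 1 was lower by limma (5 had an unadjusted p under 0.05; all genes: 1.33% higher, 0.341% lower). Within 4OH-TM cultures 16 were higher and 0 lower (all genes: 13.8% and 14.8%). For 6 members the difference between the treatments passed the interaction test, each with the larger rise under 4OH-TM, against 2.28% of all genes called in that test in either direction. Replicate 2 lay above replicate 1 in both treatments at 36 h for 5 of the 23 and below it for 11. Over all genes tested these shares were 24.4% and 37.5%. With 1 array left out the count stayed between 9 and 11, and with signals as deposited it was 2.

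Trib3, a pseudokinase induced by this response, read 59.5, 55.3, 68.9 and 61.0 at 36 h and 74.0, 56.7, 181 and 172 at 60 h. Both 4OH-TM arrays at 60 h stood far above the other 6, which lay close together. The time change was 0.14 with vehicle and 1.25 with 4OH-TM, a difference of 1.11 (limma interaction adjusted p = 0.018). The transcription factor Atf5 had the same pattern: 633, 607, 683 and 640.1 at 36 h and 632, 585, 1065 and 989 at 60 h, an interaction of 0.65 (limma adjusted p = 0.00701). Chac1, which breaks down glutathione, read 218, 233, 239.9 and 243 at 36 h and 221, 189, 414 and 348 at 60 h, an interaction of 0.75 (limma adjusted p = 0.0321). Phgdh, the entry enzyme of serine synthesis, rose more evenly, from 2049, 2442, 2049 and 2137 to 2888, 2549.9, 3061 and 3148, by 0.42 ± 0.06 (limma adjusted p = 2.07e-04). Slc1a4 (0.47), a carrier of neutral amino acids, and Slc7a5 (0.35), part of the large neutral amino acid transporter, also rose, whereas the response's central factor Atf4 (-0.12) and Ddit3 (-0.29) fell. The 2 falls became 0 without vehicle 36 h replicate 1 or 4OH-TM 60 h replicate 2 and with signals as deposited, and 1 without any other single array except 4OH-TM 36 h replicate 2. A second probe set of Trib3 changed by 0.35 over both treatments, against 0.70 at the one used.

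In CreER vehicle cultures 1 member of this list was higher and 10 were lower, against 3.85% and 6.5% of all genes. In vehicle cultures without Cre 0 were higher and 1 was lower. The median was -0.28 with CreER and -0.01 without Cre under vehicle. The difference between these time changes passed for 7 members as higher without Cre and for 1, Atf5, as lower. In that test 2.36% of all genes were called in either direction. Chac1 changed by -0.13 without Cre and by -1.25 with CreER (difference 1.12, limma adjusted p = 0.00175).

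The promoter windows of Chac1 (chr2:119350992-119351241, plus strand) and of the cystine transporter Slc7a11 (chr3:50443614-50443863, minus strand) are shown because both genes hold the element TGATGNAA, to which Atf4 with a C/EBP partner is known to bind. Capitals mark it on either strand, in 250 bases before the RefSeq start (GRCm38.p6), 5' to 3' in the gene's direction.
Chac1 promoter: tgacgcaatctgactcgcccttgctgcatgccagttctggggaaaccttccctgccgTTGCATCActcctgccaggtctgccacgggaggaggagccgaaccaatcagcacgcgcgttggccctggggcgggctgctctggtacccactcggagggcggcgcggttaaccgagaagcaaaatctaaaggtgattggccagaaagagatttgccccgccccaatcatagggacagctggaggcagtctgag
Slc7a11 promoter: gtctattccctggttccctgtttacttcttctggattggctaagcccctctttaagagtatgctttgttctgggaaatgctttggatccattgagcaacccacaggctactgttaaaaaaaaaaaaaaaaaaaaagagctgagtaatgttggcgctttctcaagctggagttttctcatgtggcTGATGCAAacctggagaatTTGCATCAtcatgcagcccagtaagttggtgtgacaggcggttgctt
The element was found in 6 of 20 measured members with a window (30%), in 3 of 10 that rose (Nupr1 being the third) and in 3.45% of all windows. Slc7a11 read 49.6, 45.1, 38.6 and 32.0 at 36 h and 40.8, 51.2, 78.4 and 76.0 at 60 h, so the 4OH-TM arrays at 60 h were the highest. All other arrays without Cre lay under 51.4, the mean signal a gene had to reach to be tested. The rise of Slc7a11 thus rests on dim values. Its interaction of 0.90 had a limma adjusted p of 0.0886.

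Of 19 measured sterol synthesis genes 10 rose and 0 fell, against 12.3% of all genes called higher, with a median of 0.11 and of 0.09 with the actin covariate. The rises were small: lanosterol synthase Lss read 816, 805, 853 and 881 at 36 h and 866, 935, 1141 and 1182 at 60 h, a change of 0.28 ± 0.04 (limma adjusted p = 2.61e-04), and mevalonate kinase Mvk changed by 0.35. Under vehicle 0 members passed by limma (3 had an unadjusted p under 0.05) and under 4OH-TM 9 rose, against 13.8% of all genes. For 4 members, Mvk, Ebp, Sc5d and Fdft1, the interaction passed. The count of rises was 4 without vehicle 60 h replicate 1 or 4OH-TM 36 h replicate 1 and 6 without vehicle 60 h replicate 2 or 4OH-TM 60 h replicate 1. With signals as deposited 0 members passed, and with arrays scaled to a common median 1 rose and 3 fell. The list's median was 0.01 and -0.02 under these scalings, above those of all genes (-0.11 and -0.14).

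Of 15 measured fatty acid synthesis genes 6 rose (40%) and 0 fell, against 12.3% and 14.9% of all genes. Their median was 0.02 (-0.04 and -0.06 under the same scalings). The signals as deposited gave 2 rises and 0 falls, and arrays scaled to a common median 4 and 4. Fads2 was the largest, with 856, 1053, 688 and 944 at 36 h and 2106, 1938, 2082 and 2717 at 60 h, a change of 1.31 ± 0.12 (limma adjusted p = 1.64e-05) that was 0.36 with the covariate. Fatty acid synthase, Fasn, read 2085, 2361, 1781 and 2048 at 36 h and 2633, 2523, 3222 and 3172 at 60 h, and its change of 0.48 was larger with 4OH-TM than with vehicle (interaction 0.52, limma adjusted p = 0.0198). Acss2, which makes acetyl-CoA from acetate, changed by 0.35, with an interaction of 0.50 (limma adjusted p = 0.00748). Acaca, acetyl-CoA carboxylase, was under 51.4 at 36 h and read 34.8, 38.4, 37.8 and 43.0 at 36 h and 105, 76.2, 82.5 and 173 at 60 h, a change of 1.14, or -0.12 with the covariate.

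Of 23 measured splicing factors 4 rose (17.4%) and 11 fell (47.8%), against 12.3% and 14.9% of all genes. Their median was -0.19, and -0.21 with the covariate. Under vehicle 0 passed by limma (6 had an unadjusted p under 0.05) with a median of 0.02. Under 4OH-TM 2 rose and 15 fell with a median of -0.31, against 13.8% and 14.8% of all genes. With signals as deposited 1 rose and 2 fell. With arrays scaled to a common median 1 rose and 17 fell, against 500 and 3006 of all 7621 genes tested. Ptbp2, the neural form of the polypyrimidine tract-binding protein, read 1086, 1084, 1182 and 1136 at 36 h and 914, 993, 742 and 816 at 60 h, a change of -0.37 ± 0.05 (limma adjusted p = 9.84e-05), while its relative Ptbp1 rose by 0.19. Hnrnpd (-0.24) and Tra2b (-0.20) fell, and Malat1, a nuclear noncoding RNA kept in this list, rose by 0.54. Clk1, described above, was the member that passed with the covariate. For 4 members the interaction passed with the larger fall under 4OH-TM. Replicate 2 lay above replicate 1 in both treatments at 36 h for 8 of the 23 and below it for 1. Over all genes tested these shares were 24.4% and 37.5%. Rises numbered 1 without 4OH-TM 36 h replicate 1 and 2 without either vehicle 60 h replicate, either 4OH-TM 60 h replicate or vehicle 36 h replicate 1; falls stayed between 8 and 13.

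Of 13 measured cytosolic heat-shock genes 1 rose (7.69%) and 8 fell (61.5%), against 12.3% and 14.9% of all genes. Their median was -0.12. Under vehicle 0 passed by limma (3 had an unadjusted p under 0.05). Under 4OH-TM 1 rose and 7 fell, against 13.8% and 14.8% of all genes. The signals as deposited gave 0 rises and 1 fall. Arrays scaled to a common median gave 0 and 10, against 500 and 3006 of all 7621 genes tested. Hspa1b, the inducible member of the Hsp70 family, was dim and variable, with 53.9, 78.4, 98.7 and 76.2 at 36 h and 28.6, 55.3, 60.2 and 30.2 at 60 h. Those groups overlapped, and the change was -0.66 ± 0.19 (limma adjusted p = 0.0209). The constitutive co-chaperone Dnaja1 (-0.20), Hspa4 (-0.23) and Hsph1 (-0.19) fell by less with far higher signals, and Dnajb1 rose by 0.26. The count of falls was 3 without vehicle 60 h replicate 1 and 5 without vehicle 36 h replicate 2, 4OH-TM 36 h replicate 1 or 4OH-TM 60 h replicate 2. Of 22 chaperones and other genes of the endoplasmic reticulum stress response, 3 rose (13.6%) and 6 fell (27.3%), against 12.3% and 14.9% of all genes. The secreted chaperone Manf fell most clearly, from 3126, 2888, 3195 and 3045 to 2389.6, 2499, 2561 and 2471 (-0.30 ± 0.03, limma adjusted p = 4.07e-05). In CreER vehicle cultures 9 of these 22 rose and 2 fell, against 3.85% and 6.5% of all genes, and the difference passed for 6 as lower without Cre, against 2.36% of all genes in either direction. Rises numbered 1 without vehicle 36 h replicate 2, 4OH-TM 36 h replicate 1 or 4OH-TM 60 h replicate 2.

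**Figure D4:**
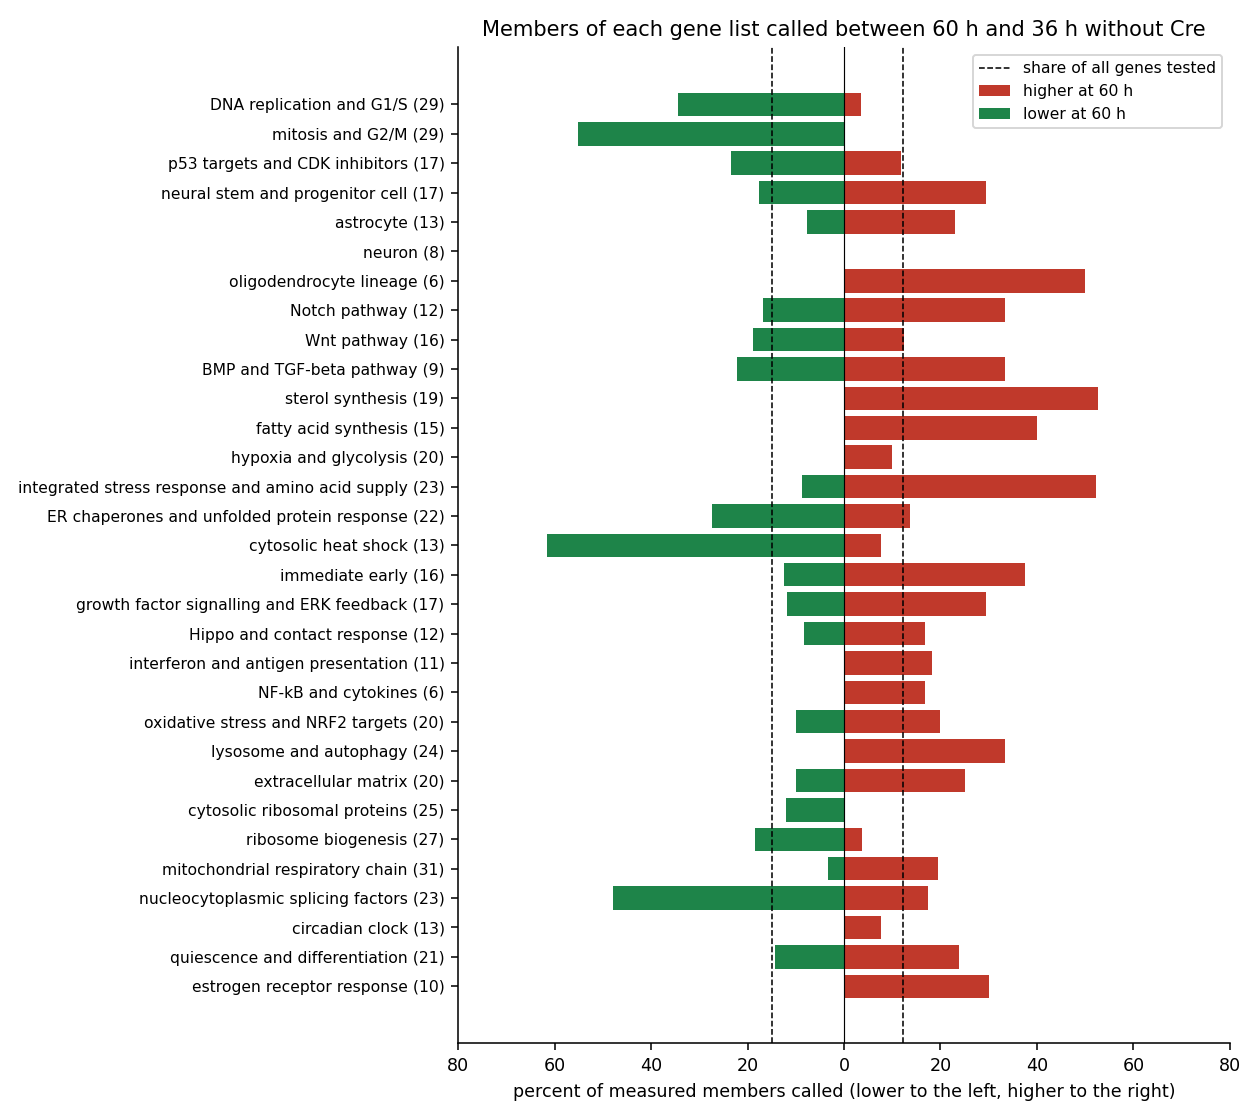
Share of the measured members of each gene list (number in brackets) called higher (red, to the right) or lower (green, to the left) at 60 h without Cre, in percent, for lists of at least 6 measured members; dashed lines mark the shares of all genes, 12.3% and 14.9%. Heat shock, mitosis and splicing reach furthest to the left, and sterol synthesis, the integrated stress response and the small oligodendrocyte list furthest to the right.

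Identity markers of neural stem cells showed both directions. Of 17 measured members 5 rose (29.4%) and 3 fell (17.6%), against 12.3% and 14.9% of all genes. Their median was -0.03, against -0.04 for all genes. Sox2, a transcription factor of stem cell maintenance, read 1676, 1704, 1696 and 1739 at 36 h and 1642, 1638, 1336 and 1333 at 60 h; the vehicle arrays at 60 h lay just below those at 36 h and the 4OH-TM arrays further below (-0.20 ± 0.04, limma adjusted p = 0.00214). The Notch target Hes1 (0.47), the Notch-modifying enzyme Lfng (0.38) and Fgfr1 (0.47) rose, with changes of -0.04, 0.00 and 0.17 with the covariate. Nestin was bright at both times, with mean signals of 2906 ± 98.5 at 36 h and 2694 ± 167 at 60 h (SD, n = 4). The count of rises was 3 without vehicle 60 h replicate 1. With signals as deposited 0 members passed by limma. With arrays scaled to a common median 3 rose and 9 fell, against 500 and 3006 of all 7621 genes tested. Under vehicle 0 passed by limma (7 had an unadjusted p under 0.05). At 36 h replicate 2 lay above replicate 1 in both treatments for 10 of the 17 and below it for 0. Over all genes tested these shares were 24.4% and 37.5%. Of 12 measured Notch pathway genes 4 rose (33.3%) and 2 fell (16.7%), against 12.3% and 14.9% of all genes. In this list 2 rose without vehicle 60 h replicate 1. None fell without either replicate 1 array at 36 h or 4OH-TM 60 h replicate 2. Of 16 Wnt pathway genes 2 rose (12.5%) and 3 fell (18.8%), near the 12.3% and 14.9% of all genes.

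The 2 genes of the Wnt list that rose did so by large amounts for these arrays, though the list's counts were near those of all genes. The ligand Wnt7b read 191, 202, 138 and 168 at 36 h and 282, 298, 353 and 361 at 60 h, without overlap, a change of 0.84 ± 0.07 (limma adjusted p = 8.02e-06) and 0.45 with the covariate. The receptor Fzd2 read 254, 285, 164 and 244 at 36 h and 465, 427, 486 and 557 at 60 h, a change of 1.002 ± 0.09 (limma adjusted p = 1.64e-05) and 0.41 with the covariate. The co-receptor Lrp6 (-0.25), the ligand Wnt7a (-0.31) and the transcription factor Tcf7l2 (-0.22) fell.

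Of 13 measured astrocyte markers 3 rose (23.1%) and 1 fell (7.69%), against 12.3% and 14.9% of all genes. Their median was 0.03. The matrix glycoprotein Sparc (0.31), the transcription factor Id3 (0.20) and the glycolytic enzyme Aldoc (0.14) rose, and glutamine synthetase, Glul, fell by 0.19. Rises numbered 2 when any single array other than 4OH-TM 60 h replicate 2 was left out, and falls 0 without that array or 4OH-TM 36 h replicate 1. Of the astrocyte list 0 passed by limma with signals as deposited, and 0 rose and 3 fell with arrays scaled to a common median. Of 8 measured neuronal markers 0 passed by limma in either direction and 0 had an unadjusted p under 0.05; the rest of the 18 listed were too dim to be tested. Of 6 measured oligodendrocyte lineage genes 3 rose, against 12.3% of all genes called higher. The proteoglycan Cspg4 changed by 0.94, from 138, 193, 113 and 113 to 320.1, 262, 238 and 289.6. Olig1 (0.12) and Nkx2-2 (0.14, but -0.01 with arrays scaled to a common median) rose by small amounts. Mbp, Mog, Mag and Mobp were below the test's limit at both times. Summed signals of the 12 microglial markers were 242.5 to 339.4 at 36 h and 252.8 to 327.7 at 60 h, those of the fibroblast list 230.6 to 326.7 and 246.5 to 307.9, and those of the endothelial and mural list 387.9 to 451.6 and 517.1 to 585.8. The last list holds Cspg4, and its endothelial markers Cdh5 (13.9 and 16.4) and Cldn5 (10.26 and 10.49) had mean signals far under the test's limit at both times. In such bulk samples fewer cells of a kind and less RNA per cell cannot be told apart.

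The time change was seen with both treatments but was larger in number with 4OH-TM. Within vehicle cultures 101 genes were higher (1.33%) and 26 lower (0.341%) at 60 h, and within 4OH-TM cultures 1055 were higher (13.8%) and 1127 lower (14.8%). These 2 comparisons share no array. The vehicle count of 127 was 2 without vehicle 36 h replicate 1, 9 without vehicle 60 h replicate 1 and 14 without vehicle 60 h replicate 2. The 4OH-TM count of 2182 was 1057 without 4OH-TM 36 h replicate 1, 1333 without 4OH-TM 60 h replicate 1 and 1217 without 4OH-TM 60 h replicate 2. Of the genes higher with vehicle, 88 were also higher with 4OH-TM (87.1% of 101 and 8.34% of 1055), and of those lower, 9 (34.6% of 26). Across genes the changes correlated with r = 0.557 and rho = 0.431; genes are not independent, and all values share the normalisation. The difference itself passed for 174 genes (2.28%; 116 higher and 58 lower under 4OH-TM), and the actin ratio also rose more under 4OH-TM, as given above; with the actin ratio as covariate 108 genes passed that test. Leaving out any single one of the 8 arrays left between 20 and 74 genes.

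**Figure D5:**
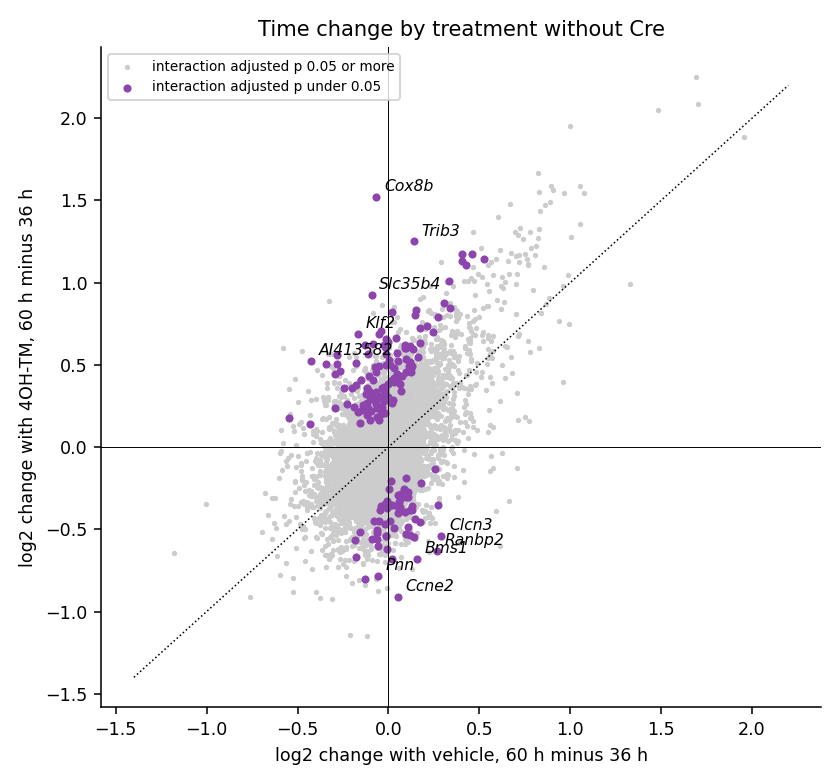
Log2 change from 36 h to 60 h with vehicle (horizontal) and with 4OH-TM (vertical), in log2(signal + 16) units, for all genes tested without Cre; purple points passed the limma interaction test and the dotted line marks equal change. Cox8b and Trib3 lie near 0 with vehicle and at 1.52 and 1.25 with 4OH-TM.

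Cox8b, a muscle-type subunit of cytochrome c oxidase, had the largest difference. It read 130.3 and 131 with vehicle and 68.6 and 69.5 with 4OH-TM at 36 h, and 125 and 124 with vehicle and 244 and 213 with 4OH-TM at 60 h. Its 4OH-TM arrays were thus the lowest at 36 h and the highest at 60 h (interaction 1.59, limma adjusted p = 0.0301). Klf2, a Kruppel-like transcription factor, was raised in the 4OH-TM arrays at 60 h (314 and 318, against 163 to 219.9 in the other 6), an interaction of 0.85 (limma adjusted p = 0.0413). Slc35b4, a nucleotide sugar transporter, and AI413582 had interactions of 1.02 and 0.95; over both treatments Slc35b4 changed by 0.42 at the probe set used and by -0.07 and 0.01 at the others. In the other direction Ccne2, the cyclin that starts S phase, read 157, 158, 188 and 193 at 36 h and 159, 168, 74.4 and 118 at 60 h, an interaction of -0.96 (limma adjusted p = 0.0487). Ranbp2, a nuclear pore protein, Bms1, a ribosome assembly factor, the chloride transporter Clcn3 and Pnn, a splicing cofactor, had interactions from -0.90 to -0.73.

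Time courses with and without Cre were compared under vehicle, since 4OH-TM activates CreER. In CreER vehicle cultures 293 genes were higher (3.85%) and 495 lower (6.5%) at 60 h. Of the 935 genes higher without Cre over both treatments, 116 were also higher there (12.4% of 935 and 39.6% of 293), and of the 1134 lower, 198 (17.5% of 1134 and 40% of 495), whereas 16 and 20 were called in opposite directions. Across genes the changes correlated with r = 0.382 and rho = 0.364. The difference between the vehicle time courses passed for 180 genes (2.36%), and leaving out any one of the 8 vehicle arrays left 54 to 151, the most without vehicle 36 h replicate 2. Arid5a did not pass the test without Cre (68.3 and 86.1 at 36 h, 91.8 and 77.1 at 60 h under vehicle) and changed by -1.72 with CreER, a difference of 1.83. Triap1 (1.56), Cit (1.20), Chac1 (1.12) and Kcnd3 (1.09) also changed more positively without Cre. Cit over both treatments changed by 0.44 at the probe set used and by -0.11 at another. The muscle enolase Eno3 (-1.496), the muscle-type oxidase subunit Cox6a2 (-1.38), A2m (-1.28), Klf2 (-1.08) and the disulfide isomerase Pdia4 (-1.03) changed less positively or more negatively without Cre.

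The labels were checked as far as the arrays allow. Deposited signals of Esr1, the estrogen receptor gene whose ligand-binding part CreER carries, were at least 279 in every CreER array and at most 32.2 in the 8 arrays without Cre. Nr2e1 was not analysed here, since 0 probe sets were listed under its symbol. Replicates correlated with r between 0.993 and 0.994 in the 4 groups without Cre, and median signals of their arrays lay between 109 and 133.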

How the data were processed

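Total RNA of 16 cultures was labelled with biotin and hybridised to Affymetrix arrays, per the labels' protocols. The authors deposited an intensity for every probe set; MAS5 is named in the submitters' processing notes, while its scaling target is not given in the sources used here. Precision is limited by the number of arrays.

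From the 22690 probe sets 64 controls were dropped; 20380 of the rest had 1 gene symbol in the platform annotation, 691 several and 1555 none. Signals were quantile-normalised over 16 arrays and taken as log2(signal + 16). The probe set of highest mean stood for each of 12393 genes, and 7618 whose mean was at or above a signal of 51.4 (the 40th percentile over probe sets) were tested in 1 limma fit of 8 group means (limma 3.58.1, R 4.3.3, mean-variance trend, two-sided, Benjamini-Hochberg at 0.05). Single measures were tested by exact permutation. Alternatives covered scaling, pseudocount, filter, probe sets, trend, covariates, a replicate block and leaving out arrays.

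Named genes were the 15 largest rises and falls among called genes whose times did not overlap, up to 4 members of smallest p per list (others are named as counts of at most 5 or chosen after their values were seen), and up to 5 per direction in the 2 tests of differences. The members and the 35 gene lists were chosen with earlier results of these data known. Correlations of same-numbered replicates' deviations ran from -0.11 to 0.292 without Cre, the highest between the 36 h groups; since not every pair was above 0.1, numbers were not taken as pairs.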

Additional observations from a re-analysis of the deposited data

Results flagged for a closer look

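Among the control ratios, the pyruvate carboxylase ratio of 4OH-TM 60 h replicate 2 (0.626) stood far from the other 60 h arrays without Cre (0.413 to 0.434). Its gap was 0.902 of the range, and how often chance gives such a gap was not tested.

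The time change differed between treatments by the interaction test for the genes named in the report. The difference, 4OH-TM minus vehicle, was 1.59 for Cox8b, 1.11 for Trib3, 1.02 for Slc35b4, 0.951 for AI413582 and 0.854 for Klf2. It was -0.96 for Ccne2, -0.896 for Ranbp2, -0.838 for Bms1, -0.83 for Clcn3 and -0.725 for Pnn.

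The time change under vehicle differed between cultures without Cre and with CreER, by the test of that difference. The difference, no Cre minus CreER, was 1.83 for Arid5a, 1.56 for Triap1, 1.20 for Cit, 1.12 for Chac1 and 1.09 for Kcnd3. It was -1.496 for Eno3, -1.38 for Cox6a2, -1.28 for A2m, -1.08 for Klf2 and -1.03 for Pdia4.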

How the results depend on the processing

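The counts depended on the scaling, the covariates and single arrays. With signals as deposited, 192 genes were higher and 120 lower (61.5% of calls higher, against 45.2% in the report), and the median of all genes was -0.11; 31 genes were called with vehicle, 304 with 4OH-TM, 2 in the interaction and 16 between no Cre and CreER. With arrays scaled to a common median the counts were 500, 3006 (14.3% of calls higher, median of all genes -0.14), 427 with vehicle, 26 in the interaction and 77 against CreER. With every probe set they were 1803 and 1889, with 411 genes under vehicle, 3907 under 4OH-TM and 85 in the interaction. No filter gave 11 genes with vehicle, 58 in the interaction and 93 against CreER, and no mean-variance trend gave 21, 28 and 97. The 8 arrays alone with time and treatment as factors gave 698 lower.

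The actin covariate gave 3 higher and 2 lower, 3 with vehicle, 25 with 4OH-TM and 108 in the interaction; the Gapdh covariate gave 7, 7, 3 and 120, and 64 against CreER. Under the actin covariate the signs of Insm1 (0.0404), Gm6958 (0.0031) and Ccnk (0.23) turned. Chosen after seeing the data, leaving out both 36 h replicate 1 arrays gave 479 and 297, and the actin covariate on signals as deposited 4 and 2. Over both treatments the comparison with CreER called 1306 genes. Within vehicle arrays alone the actin ratio rose by 0.151 and within 4OH-TM arrays by 0.273, where 2 against 2 cannot pass.

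Leaving out 1 array gave 638 to 882 higher and 546 to 989 lower, 2 to 167 with vehicle, 1057 to 1646 with 4OH-TM, 20 to 74 in the interaction and 54 to 151 against CreER. The replicate block gave 931 higher and 1089 lower, 180 with vehicle and 191 in the interaction; the numbers were not taken as pairs. The cause of these shifts was not tested. Probe sets near background limit what dim genes can show.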

Other observations

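Of 24 measured genes of lysosomes and autophagy 8 rose and 0 fell, against 12.3% of all genes called higher, with a median of 0.08, against -0.04 for all genes. Under vehicle 0 passed by limma (3 had an unadjusted p under 0.05) with a median of -0.01. Under 4OH-TM 12 rose, against 13.8% of all genes. With arrays scaled to a common median 2 rose and 2 fell, and the median was -0.06, against -0.14 for all genes. The autophagosome protein Map1lc3a (0.29), the protease cathepsin D, Ctsd (0.24), prosaposin, Psap (0.17), and the sialidase Neu1 (0.28) rose, and 6 members had a larger rise with 4OH-TM by the interaction test. With signals as deposited 0 passed, 4 rose without 4OH-TM 36 h replicate 1, and 5 rose without vehicle 36 h replicate 2, vehicle 60 h replicate 1 or 4OH-TM 60 h replicate 2.

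Immediate early genes went both ways, with 6 of 16 higher (37.5%) and 2 lower (12.5%), against 12.3% and 14.9% of all genes. Falls numbered 0 without either replicate 1 array at 36 h or at 60 h. The phosphatase Dusp1 (0.42) and the AP-1 members Jund (0.34) and Jun (0.23) rose, whereas Fos fell by 0.38. Of 20 measured hypoxia and glycolysis genes 2 rose (10%) and 0 fell, against 12.3% of all genes called higher. In CreER vehicle cultures 9 of the 20 rose, against 3.85% of all genes, and the difference between vehicle time courses passed for 3 members, against 2.36%.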
